A study of Mus musculus with 144 samples.

Results

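White adipose tissue (WAT) of nmrHAS2 mice was compared between 24 and 6 months of age across all genes, from 6 old and 6 young libraries out of 144 libraries of 6 tissues in the series. The old nmrHAS2 group held 3 female and 3 male libraries aged 24 months and the young nmrHAS2 group held 3 female and 3 male libraries aged 6 months. Another 12 WAT libraries of CreER control mice with the same ages and sexes entered the same fit. The nmrHAS2 mice carry a tamoxifen-inducible transgene for hyaluronan synthase 2 of the naked mole-rat, and CreER, the tamoxifen-activated recombinase, is present in both genotypes. Hyaluronan is a large sugar polymer of the extracellular matrix, and the study asked how its overproduction relates to lifespan and healthspan. The fat depot, the promoter of the transgene and the animal behind each library are not given in the labels used here, so p-values measure the spread between samples, which may be technical.

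White fat stores triglyceride in adipocytes, which take up fatty acids from lipoproteins, make fat from glucose and release hormones such as leptin and adiponectin. Around them lie a collagen matrix, stromal progenitors, vessels with their pericytes, macrophages and lymphocytes. In ageing mice, fat is known for a build-up of lymphocytes and for changes in its macrophages and progenitors.

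The 3 promoters printed here belong to interferon-induced genes that were higher in old WAT, and they are shown because such genes have a known regulatory motif, the interferon-stimulated response element. Each runs from 250 bases before to 50 bases after the gene start, 5′ to 3′ on the strand of the gene, from RefSeq on GRCm38.p6. Ifit1 lies at chr19:34640639-34640938 on the plus strand, Irgm1 at chr11:48871371-48871670 on the minus strand and Oas1a at chr5:120907476-120907775 on the minus strand. Capitals mark matches on either strand to TTTC, then NN (any bases), then TTTC, and neighbouring matches can overlap.
Ifit1: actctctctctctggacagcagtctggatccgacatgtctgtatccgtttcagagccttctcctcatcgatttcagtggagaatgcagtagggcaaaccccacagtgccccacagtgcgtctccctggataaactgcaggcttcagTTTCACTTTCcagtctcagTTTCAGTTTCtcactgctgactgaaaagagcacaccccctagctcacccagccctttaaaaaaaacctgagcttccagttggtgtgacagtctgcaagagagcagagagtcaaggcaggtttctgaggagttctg
Irgm1: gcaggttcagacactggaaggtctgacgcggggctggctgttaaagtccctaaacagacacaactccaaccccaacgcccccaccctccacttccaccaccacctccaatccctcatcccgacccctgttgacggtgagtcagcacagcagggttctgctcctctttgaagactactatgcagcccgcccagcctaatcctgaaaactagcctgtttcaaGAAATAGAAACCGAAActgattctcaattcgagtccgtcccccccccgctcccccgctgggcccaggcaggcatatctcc
Oas1a: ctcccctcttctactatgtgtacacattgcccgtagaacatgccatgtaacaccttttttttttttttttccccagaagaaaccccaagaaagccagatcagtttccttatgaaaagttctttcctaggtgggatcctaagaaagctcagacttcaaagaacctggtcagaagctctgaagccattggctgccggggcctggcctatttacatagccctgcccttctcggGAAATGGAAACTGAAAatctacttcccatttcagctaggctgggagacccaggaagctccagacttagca
The motif occurred in 10 of the 14 interferon-response genes with a promoter entry (71.4%) and in 3 of the 7 called ones (42.9%), against 1079 of 27025 promoters in all (3.99%). For the cholesterol list, the sterol motif core CACCCCAC occurred on either strand in 1 of 15 promoters (6.67%) against 3.3% of all, the same letters with AT before them in 0 of 15 against 0.0999%, and ATTGGC in 12 of 15 (80.0%) against 16.7%. A match describes the letters of the window and no binding.

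Levels are given as CPM (counts scaled to the library total, and between libraries by the trimmed mean of M values), and changes as log2 changes with age, old minus young, ± standard error. A gene is called at an adjusted p under 0.05 over the 21109 genes tested. Library totals ran from 28.6 to 95.7 M counts. The WAT libraries were of different kinds. In the 3 young male libraries 5 small RNAs that lack a poly(A) tail (Rn7sk, Rmrp, Rpph1, Rn7s1 and Rn7s6) took 0.0014 to 0.00172% of the counts, while in the 6 old and the 3 young female libraries they took 11.04 to 19.0%. The change with age in males and this difference in library kind cannot be told apart. In females all libraries exceeded 1% on these RNAs, but old libraries 1 and 2 had few values that were not whole numbers (27.3 and 27.7% of values above 0), whereas old library 3 (66.8%) resembled the young ones (63.5 to 68.0%). A comparison within library kind therefore sets old female library 3 alone against the 3 young females. The spread in that fit comes from the other WAT groups, the lone library being assumed to vary like them, so its calls are those of 1 old library, and it is also the deepest.

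Transcripts of neighbouring or foreign tissue differed with age as well. The summed level of the 44 tested pancreas genes was 72618, 44705 and 24.1 CPM in old females and 774, 22298 and 876 CPM in old males, against 20.03 to 79.4 CPM in the 6 young libraries. Of the 44 pancreas genes 43 rose, 6 being at 0 in all young libraries, and of 45 skeletal muscle genes 38 fell. Without the 3 libraries above 10000 CPM of pancreas genes, 5 pancreas genes rose and 23 muscle genes fell. The muscle sum was 127 to 247 CPM in old libraries, against 124 to 1931 CPM in young ones, with young female library 3 highest. These lists, further muscle transcripts, histones and the small RNAs were set aside from the naming of genes. Members of other lists that are among them stay in the list counts below. With them removed first, 6 of 17 adipocyte identity genes, 3 of 12 adipokine genes (median -0.38) and 6 of 17 insulin and growth factor genes fell. Adipoq, the adiponectin gene, identified fat in every library, with 1338 to 3356 CPM in old libraries, against 2110.0 to 3755 CPM in young ones.

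**Figure D1:**
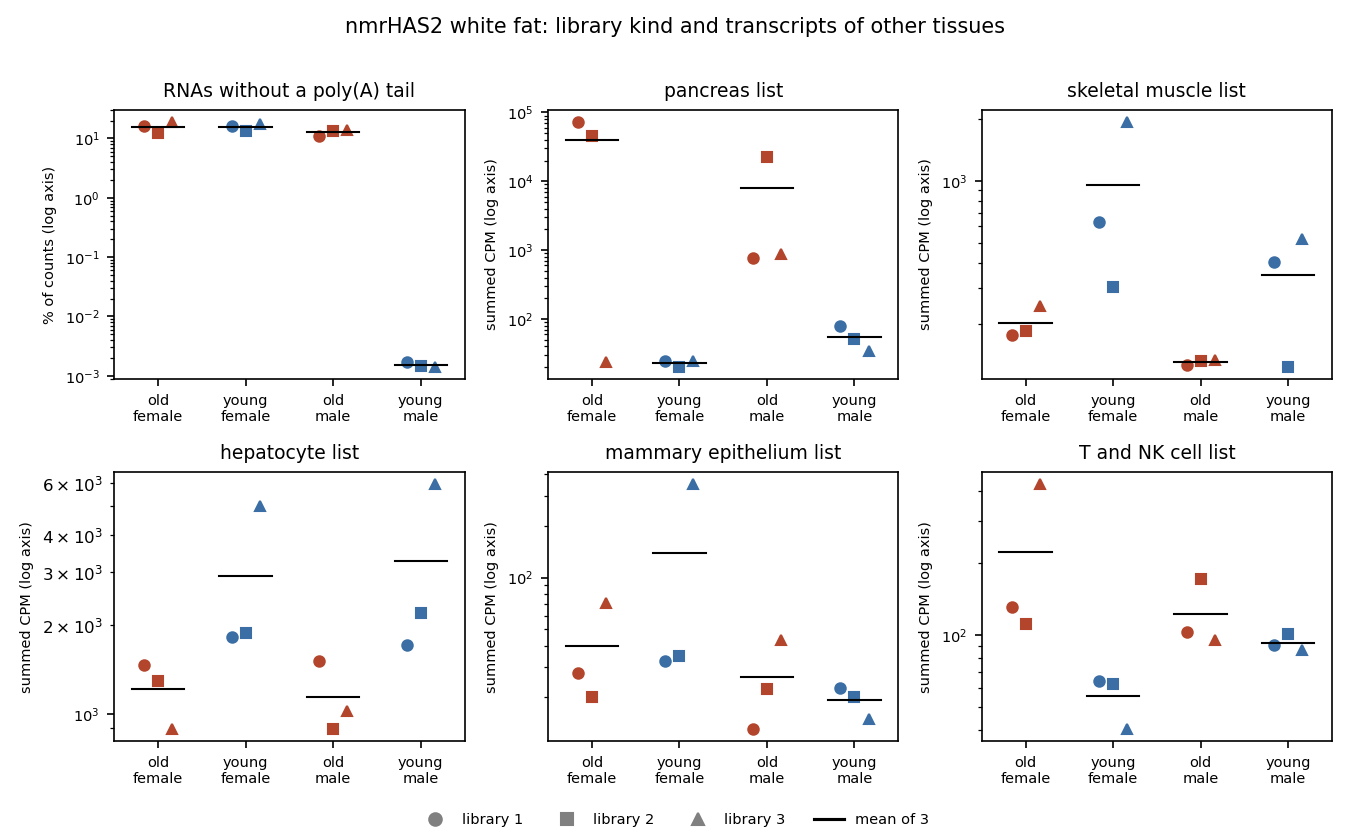
Each panel plots the 12 nmrHAS2 WAT libraries as points on a log axis, old in red and young in blue by sex, with lines at the mean of 3. The first panel gives the percent of counts that fall on 5 untailed small RNAs and the others the summed CPM of a marker list. The 3 young male libraries lie at 0.0014 to 0.00172% in the first panel, below the others at 11.04 to 19.0%, and old female libraries 1 and 2 and old male library 2 are highest for pancreas genes at 72618, 44705 and 22298 CPM.

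The transgene transcript was low at both ages. It reached 3.68, 2.93 and 1.33 CPM in old females and 1.88, 2.02 and 0.702 CPM in old males, against 2.55, 2.84 and 6.01 CPM in young females and 3.04, 1.06 and 2.16 CPM in young males, without scaling between libraries. The 12 CreER libraries held 0.104 to 1.29 CPM, with 0.663 to 1.29 CPM in young females and 0.104 to 0.26 CPM in males. Old male library 3 and young male library 2 therefore lay inside the range of all controls but above every male control. With age the transgene changed by -0.48 ± 0.36 (adjusted p = 0.305) and mouse Has2 by -0.20 ± 0.32 (adjusted p = 0.649), neither past the threshold. Reads of these near-identical genes may be shared, so both values are uncertain.

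With age, 4147 genes rose (19.6% of those tested) and 3622 fell (17.2%), with a median log2 change over all tested genes of 0.02. Most calls came from males: in females alone 577 genes rose (2.73%) and 411 fell (1.95%), in males alone 3923 rose (18.6%) and 3544 fell (16.8%), together 35.4% of genes. Of the genes called in each sex, 148 rose in both, 168 fell in both and 44 went in opposite directions. In old female library 3 alone, set against the young females within library kind, 785 of 22913 genes were called higher (3.43%) and 182 lower (0.794%), together 4.22%. Compared within each sex, old libraries lay above all young ones of their sex for 958 genes (4.54%) and below them for 1030 (4.88%).

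**Figure D2:**
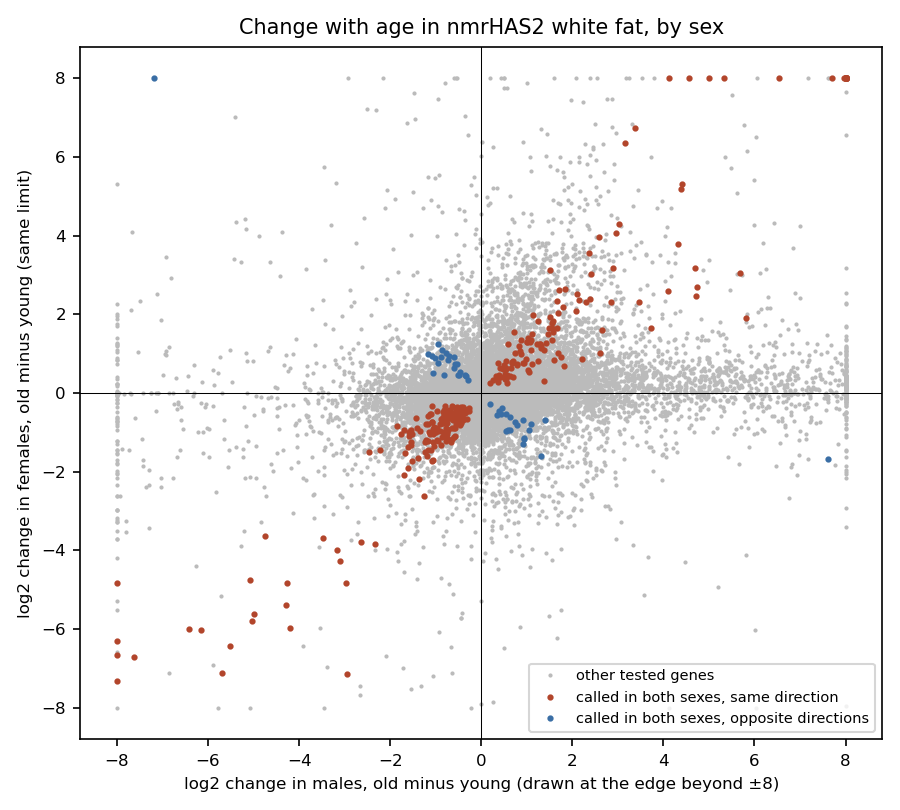
Each point is 1 tested gene, with its log2 change with age in nmrHAS2 males on the x axis and in females on the y axis, drawn at the edge beyond 8 in either direction. Grey points spread mainly along the male axis; 148 genes called as rises in both sexes and 168 called as falls in both are red, and 44 called in opposite directions are blue.

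Transcripts of lymphocytes were higher in old WAT. Of 23 T and natural killer cell genes 18 rose and 1 fell, with a median log2 change of 1.59 beside 0.02 over all genes, and of 20 B and plasma cell genes 14 rose and 0 fell, with a median of 1.81. In females alone 16 T cell and 6 B cell genes rose (medians 2.53 and 2.61, beside -0.01 over all genes), and in males alone 1 and 0 rose while 2 T cell genes fell (medians 0.71 and 0.83, beside 0.04). The summed B and plasma cell list was 5120.4, 4306 and 6085 CPM in old females and 1831, 8940.2 and 896 CPM in old males, against 1407, 1104 and 3012 CPM in young females and 1122, 1521 and 1872 CPM in young males. Old males therefore spread to both sides of the young ones, with old male library 3 below all 6 young libraries. In a bulk sample, more or fewer cells of a type and more or less RNA per cell cannot be told apart.

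Pdcd1, which encodes the inhibitory receptor PD-1 of activated T cells, had 3.31, 3.39 and 13.8 CPM in old females and 3.69, 8.27 and 3.21 CPM in old males, against 0.605, 0.376 and 0.745 CPM in young females and 0.983, 1.1 and 0.83 CPM in young males. No old library overlapped a young one, and old female library 3 was the highest. Its change was 2.97 ± 0.52 (adjusted p = 0.000303), with 2.38 ± 0.73 (adjusted p = 0.016) in males, 3.57 ± 0.76 (adjusted p = 0.0192) in females and 4.58 within library kind. Gzmk, a granzyme of memory T cells, had 5.13, 3.46 and 27.2 CPM in old females and 0.988, 4.53 and 1.59 CPM in old males, against 0.0902, 0.142 and 0.206 CPM in young females and 0.281, 0.416 and 0.415 CPM in young males, so that every old library exceeded every young one. Gzmk rose by 4.50 ± 0.87 (adjusted p = 0.000661), called in females but not in males. Cd2, an adhesion molecule of T and natural killer cells, had 16.4, 12.8 and 50.4 CPM in old females and 4.76, 13.7 and 6.46 CPM in old males, against 4.32, 4.62 and 2.51 CPM in young females and 5.03, 4.43 and 4.38 CPM in young males. Old and young females were apart for Cd2, whereas the lowest old male lay within the young males. Its change was 1.82 ± 0.41 (adjusted p = 0.00236). Cd5, a modulator of T cell receptor signals, had 1.86 to 11.8 CPM (median 4.26) in old libraries, against 0.712 to 1.96 CPM (median 1.44) in young libraries, the groups overlapping by 1 old male. It rose by 1.87 ± 0.43 (adjusted p = 0.00259).

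Of the genes outside the list, Trat1, Ubash3a, Gpr171 and Ptprcap act in T cells and are described for having no overlap in either sex, a choice made after their values were seen. Trat1, an adaptor at the T cell receptor, had 3.44, 4.29 and 3.48 CPM in old females and 3.35, 2.59 and 2.67 CPM in old males, against 1.84, 1.63 and 1.63 CPM in young females and 1.01, 1.39 and 1.06 CPM in young males. Its change was 1.22 ± 0.17 (adjusted p = 3.39e-05). Ubash3a, a brake on T cell receptor signalling, rose by 1.66 ± 0.30 (adjusted p = 0.000377), Gpr171, a receptor on T cells, by 1.99 ± 0.40 (adjusted p = 0.000969) and Ptprcap, a partner of the CD45 phosphatase, by 2.26 ± 0.48 (adjusted p = 0.00137).

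Among B cell genes, Cd79b, a signalling chain of the B cell receptor, had 52.3, 27.8 and 218 CPM in old females and 9.12, 29.4 and 15.9 CPM in old males, against 14, 7.01 and 4.41 CPM in young females and 8.75, 5.09 and 3.53 CPM in young males. Old female library 3 stood far above the others, and old libraries lay above young ones within each sex, while the lowest old male was below the highest young female. Cd79b rose by 2.60 ± 0.64 (adjusted p = 0.00434), Cd22, an inhibitory B cell lectin, by 2.42 ± 0.58 (adjusted p = 0.00352) and Fcrla, an Fc receptor-like protein of B cells, by 2.09 ± 0.56 (adjusted p = 0.00723). Tnfrsf13c, the receptor for the survival factor BAFF and chosen after its values were seen, rose by 2.91 ± 0.70 (adjusted p = 0.00355). The summed T cell list stood at 429 CPM in old female library 3, against 95.7 to 171 CPM in the other old libraries and 40.4 to 101 CPM in young ones. Without this library 15 T cell and 8 B cell genes rose, and without old male library 2, 17 and 9 rose. The part of these 2 libraries in the remaining calls was not tested.

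**Figure D3:**
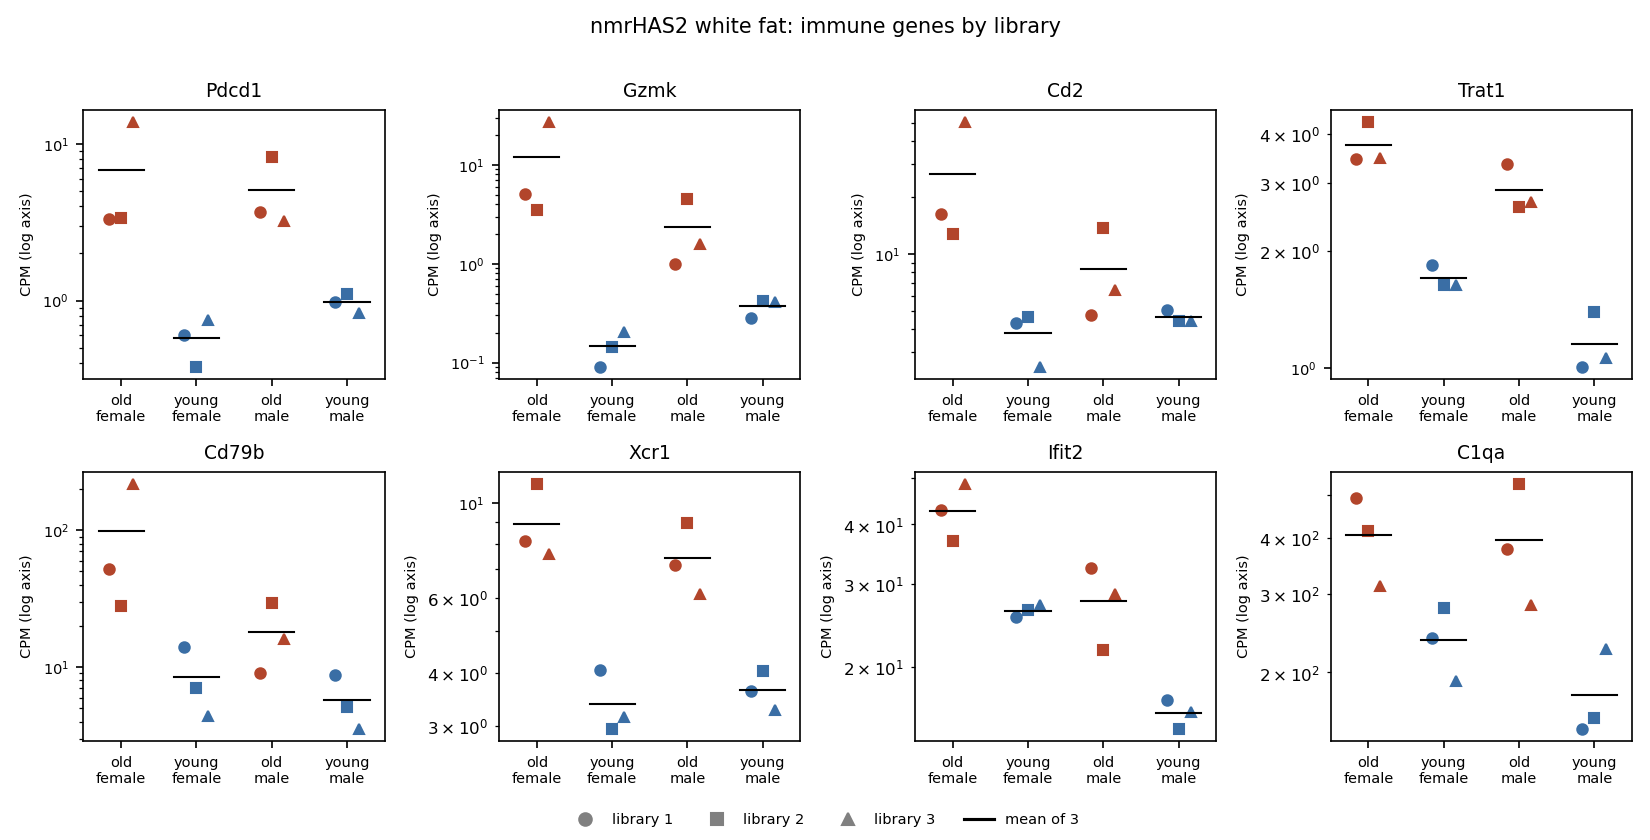
Each panel plots the CPM (log axis) of 1 immune gene in the 12 nmrHAS2 WAT libraries, old in red and young in blue by sex, with lines at the mean of 3. For Pdcd1, Gzmk, Trat1, Xcr1 and C1qa all 6 old libraries lie above all 6 young ones, Ifit2 and Cd79b are apart within each sex, and for Cd2 old and young males overlap.

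Interferon-response genes had smaller changes than the lymphocyte lists. Of 22 interferon-response genes 10 rose and 0 fell (median 0.58), beside 19.6% of all genes that rose. In females alone 7 rose, and in males alone 1 rose and 2 fell. Ifit2, an antiviral protein induced by interferon, had 42.8, 36.9 and 48.7 CPM in old females and 32.4, 21.8 and 28.5 CPM in old males, against 25.5, 26.4 and 27.1 CPM in young females and 17.1, 14.8 and 16.2 CPM in young males. Old libraries lay above young ones within each sex, with the highest values in old females. Its change was 0.74 ± 0.10 (adjusted p = 3.58e-05), with 0.78 ± 0.15 (adjusted p = 0.000399) in males, 0.70 ± 0.15 (adjusted p = 0.0181) in females and 0.88 within library kind. Irf7, a transcription factor of the interferon response, rose by 0.95 ± 0.25 (adjusted p = 0.00634), Rtp4 by 0.83 ± 0.22 (adjusted p = 0.00656) and Usp18, a negative regulator of interferon signalling, by 0.71 ± 0.19 (adjusted p = 0.00781).

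The genes of the printed promoters were more variable. Irgm1, a GTPase that acts on vacuoles of intracellular bacteria, had 25.8 to 80.1 CPM (median 34.6) in old libraries, against 23 to 28.5 CPM (median 25.2) in young libraries and rose by 0.60 ± 0.18 (adjusted p = 0.0123). Ifit1, which binds foreign RNA caps, had 7 to 37.5 CPM (median 15.7) in old libraries, against 5.06 to 16.1 CPM (median 7.02) in young libraries and rose by 0.90 ± 0.27 (adjusted p = 0.0155), and Oas1a, a sensor of double-stranded RNA, had 6.06 to 28.5 CPM (median 13.3) in old libraries, against 4.99 to 12.5 CPM (median 6.3) in young libraries and rose by 0.75 ± 0.27 (adjusted p = 0.0368). The ranges overlapped for all 3 genes, and old female library 3 was the highest of each. The count of interferon genes that rose was 6 without old female library 3, and also 6 without young female library 3, young male library 2 or young male library 3. The call for Oas1a was lost without each of 6 libraries (old female 3, old male 2, young female 3 and the 3 young males).

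Of 20 genes of dendritic cells and antigen presentation 5 rose and 0 fell (median 0.26), a share close to the 19.6% of all genes that rose. Xcr1, the chemokine receptor of cross-presenting dendritic cells, had 8.13, 11.1 and 7.58 CPM in old females and 7.17, 8.98 and 6.13 CPM in old males, against 4.07, 2.95 and 3.15 CPM in young females and 3.63, 4.04 and 3.27 CPM in young males. All old libraries exceeded all young ones, in females and in males. Xcr1 rose by 1.21 ± 0.15 (adjusted p = 1.15e-05), with 1.03 ± 0.21 (adjusted p = 0.000946) in males, 1.39 ± 0.21 (adjusted p = 0.00538) in females and 1.16 within library kind. Psmb8, a subunit of the immunoproteasome, had 41.2 to 153 CPM (median 62.2) in old libraries, against 36.8 to 42.7 CPM (median 40.3) in young libraries, with 1 old male inside the young range, and rose by 0.80 ± 0.21 (adjusted p = 0.00667). The count of the list was 3 without old female library 3 or old male library 2.

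Of 19 macrophage genes 8 rose and 0 fell (median 0.59), 0 in females alone and 4 in males alone, where 18.6% of all genes rose. C1qa, a chain of complement C1q, had 491, 415 and 312 CPM in old females and 377, 529 and 284 CPM in old males, against 238, 279 and 191 CPM in young females and 149, 158 and 225 CPM in young males. The lowest old library lay above the highest young one, and C1qa rose by 0.97 ± 0.25 (adjusted p = 0.0052). Mrc1, the mannose receptor of tissue macrophages, rose by 0.76 ± 0.25 (adjusted p = 0.0232) and Clec10a, a lectin of macrophages and dendritic cells, by 0.82 ± 0.26 (adjusted p = 0.0197). Within library kind their values were -0.32 and -0.15. Fewer macrophage genes rose without old female library 1 (3) or 2 (5), old male library 2 (1), young female library 1 (5), young male library 1 (2) or young male library 2 (4). Without old female libraries 1 and 2 and old male library 2, which are rich in pancreas transcripts, the macrophage median was 0.28. In that fit the medians were 1.84 for T cell, 2 for B cell and 0.85 for interferon genes. Old female library 3, the highest in the T cell sum, was then the only old female, and its part in these values was not tested. In a second list, 17 genes of lipid-associated macrophages, 1 rose and 4 fell (median -0.29), beside 19.6 and 17.2% of all genes. The sum of this list was 10121 to 13050.4 CPM in old males, against 18389.9 to 21056 CPM in young males. The median change in males was nevertheless 0.14, with 3 falls, and there age and library kind cannot be told apart. In females the sums overlapped, at 7777 to 10250 CPM in old libraries, against 8159 to 12891 CPM in young ones. Of 12 neutrophil genes 3 rose and 0 fell (median 1.03), among them S100a9, a calcium-binding protein of neutrophils, at 2.18 ± 0.69 (adjusted p = 0.0197). The neutrophil share is close to that of all genes, and without the 3 libraries rich in pancreas transcripts 0 neutrophil genes were called, with a median of -0.23. S100a9, at -0.32 within library kind, had 14.4 CPM in old male library 2 and 0.978 to 6.82 CPM in the other old libraries, against 0.609 to 1.8 CPM in young ones.

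Matrix transcripts were lower in old WAT. Of 20 collagen and matrix genes 13 fell and 0 rose (median -0.66), beside 17.2% of all genes that fell. In females alone 5 fell, and in males alone 7 fell and 2 rose. Col1a1, the main fibrillar collagen chain, had 69.4, 74.4 and 57.2 CPM in old females and 68.1, 119 and 144 CPM in old males, against 164, 199.6 and 84.3 CPM in young females and 434, 424 and 349 CPM in young males. All old libraries were below the young ones within each sex, with young female library 3 nearest to the old ones. Col1a1 fell by 1.51 ± 0.26 on the log2 scale (adjusted p = 0.000261). Col6a2, a chain of the beaded collagen around adipocytes, had 86.5 to 255 CPM (median 130.0) in old libraries, against 75.6 to 799 CPM (median 474) in young libraries. It changed by -1.57 ± 0.28 (adjusted p = 0.000305). Sparc, a collagen-binding secreted protein, had 671 to 1616 CPM (median 987) in old libraries, against 691 to 5286 CPM (median 2789) in young libraries and changed by -1.32 ± 0.26 (adjusted p = 0.000694). For both, young female library 3 was close to or below the lowest old library, and the other young libraries lay above all old ones. Eln, elastin, had 47.7, 50.03 and 32.5 CPM in old females and 112, 117 and 134 CPM in old males, against 123, 97.6 and 72.5 CPM in young females and 201, 180.2 and 181 CPM in young males, apart in both sexes. Eln fell in each, at -0.63 ± 0.21 (adjusted p = 0.0229) in males, -1.17 ± 0.21 (adjusted p = 0.0118) in females and -1.59 within library kind. The count of matrix genes that fell was 7 without young female library 2.

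Of 13 smooth muscle and pericyte genes 4 fell and 0 rose (median -0.70), beside 17.2% of all genes that fell. Without young female library 3, which had the highest sum of this list, 4 fell and the median was -0.13. Rgs5, a G protein regulator and pericyte marker, had 125, 144 and 150.4 CPM in old females and 253, 212 and 218 CPM in old males, against 333, 333 and 310.4 CPM in young females and 412, 389 and 361 CPM in young males. The old libraries lay below all young ones, and the change was -0.99 ± 0.11 (adjusted p = 4.2e-06), with -1.12 within library kind. Notch3, a receptor of mural cells, changed by -1.34 ± 0.17 (adjusted p = 1.08e-05) and Cspg4, the NG2 proteoglycan of pericytes, by -1.34 ± 0.23 (adjusted p = 0.000212). The male fall of Notch3, at -1.84 ± 0.24 (adjusted p = 7.91e-06), was larger than the female one, at -0.83 ± 0.23 (adjusted p = 0.0463), by a difference of -1.01 (adjusted p = 0.0368). For the male value, age and library kind cannot be told apart.

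Stromal progenitor genes went in both directions, with 3 of 17 rising and 2 falling (median -0.09), below the 19.6 and 17.2% of all genes. Icam1, an adhesion molecule of committed preadipocytes, endothelium and leukocytes, had 37.6, 37.9 and 39.3 CPM in old females and 27.7, 38 and 22.9 CPM in old males, against 22.8, 21.1 and 22.3 CPM in young females and 18.9, 18 and 18.6 CPM in young males, apart in both sexes. Icam1 rose by 0.73 ± 0.15 (adjusted p = 0.00109). Col15a1, a basement membrane collagen, changed by -1.98 ± 0.46 (adjusted p = 0.00284), and young female library 3 held 40.8 CPM, against 429 to 654 CPM in the other young libraries. Pdgfra, the progenitor receptor for platelet-derived growth factor, rose by 1.50 ± 0.22 (adjusted p = 3.66e-05) in males and changed by -0.10 ± 0.22 (adjusted p = 0.83) in females, and had -0.87 within library kind. Its male rise and library kind cannot be told apart.

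Adipocyte genes were lower in old WAT, mainly in males, where age and library kind cannot be told apart. Of 19 adipocyte identity genes 7 fell and 0 rose (median -0.49), 0 in females alone and 6 in males alone, where 16.8% of all genes fell. Their summed level was 30303 to 51316 CPM in old libraries, against 42194 CPM in young female library 3 and 62169 to 73570.0 CPM in the other young ones. Lpl, lipoprotein lipase, which frees fatty acids from lipoproteins, had 2424, 2378 and 2532 CPM in old females and 2154, 2033 and 4383 CPM in old males, against 6087, 5860.5 and 2557 CPM in young females and 12833, 9834 and 10564 CPM in young males. The old libraries were below the young ones of their sex, young female library 3 being close to the old, and Lpl changed by -1.47 ± 0.27 (adjusted p = 0.000414). Cidec, a fusion protein of lipid droplets, had 1178 to 2179 CPM (median 1880.0) in old libraries, against 2257 to 3542 CPM (median 2678) in young libraries, without overlap, and changed by -0.63 ± 0.18 (adjusted p = 0.0118). Car3, carbonic anhydrase 3, changed by -0.94 ± 0.27 (adjusted p = 0.0104). The count of falls was 3 without old male library 2 or young female library 1, and 4 without young female library 2 or young male library 2. Without the 3 libraries rich in pancreas transcripts it was 2.

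Among 13 adipokine genes 4 fell (median -0.50) and 0 rose, beside 17.2% of all genes that fell. Rbp4, the retinol carrier made by fat and liver, had 145, 128 and 144 CPM in old females and 77.4, 64.5 and 119.7 CPM in old males, against 298, 232 and 167 CPM in young females and 362, 326 and 523 CPM in young males. The old libraries were below all young ones. Rbp4 changed by -1.48 ± 0.24 (adjusted p = 0.000126), with -2.21 ± 0.34 (adjusted p = 5.89e-05) in males and -0.74 ± 0.33 (adjusted p = 0.194) in females. Apln, the peptide apelin, changed by -2.50 ± 0.44 (adjusted p = 0.000217) in males and -0.35 ± 0.42 (adjusted p = 0.67) in females, a difference past the threshold (adjusted p = 0.0165). For the male values of Rbp4 and Apln, age and library kind cannot be told apart. Retn, resistin, changed by -0.85 ± 0.27 (adjusted p = 0.0185). Of 18 genes of fatty acid and triglyceride synthesis 3 fell (median -0.40) and 0 rose, no more than the 17.2% of all genes that fell. The median was -0.84 in males, 0.11 in females and 0.72 within library kind, and without the 3 libraries rich in pancreas transcripts 0 fell, with a median of -0.025. Gpam, the first acyltransferase of triglyceride synthesis, had 108 to 430.2 CPM (median 189) in old libraries, against 272 to 732 CPM (median 389) in young libraries, with old female library 3 among the young ones, and changed by -1.06 ± 0.28 (adjusted p = 0.00599). Dgat2, the last enzyme of that pathway, changed by -1.53 ± 0.53 (adjusted p = 0.0315), with 1063 CPM in old female library 3 and 107 to 488 CPM in the other old libraries, against 168 CPM in young female library 3 and 842 to 1619 CPM in the other young ones. Without old female library 3, 11 genes of the list fell, and without old male library 3, 6.

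Among 22 cholesterol synthesis genes 11 fell and 0 rose (median -0.63), 2 in females alone and 5 in males alone, where 16.8% of all genes fell. Fdft1, squalene synthase, had 32.8, 30.5 and 44.9 CPM in old females and 37.5, 31 and 43 CPM in old males, against 52.6, 54.3 and 61.2 CPM in young females and 46.3, 65.7 and 60.1 CPM in young males. Every old library was below every young one. Fdft1 changed by -0.63 ± 0.17 (adjusted p = 0.00784), and Hsd17b7, which reduces a sterol intermediate, changed by -0.60 ± 0.14 (adjusted p = 0.0025). The count ran from 5, without old female library 2 or young female library 1, to 17, without old female library 3. Without the 3 libraries rich in pancreas transcripts it was 2, and with either old male library 2 (6), old male library 1 (7), old female library 1 (7) or young male library 2 (7) left out it was also under the full count by more than 1.5 times.

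Genes of mitochondrial fuel use were lower. Of 19 genes of branched-chain amino acid breakdown 9 fell and 0 rose (median -0.41), beside 17.2% of all genes that fell. For 8 of the 19 the old libraries lay below all young ones of their sex, in females and in males, beside 4.88% of all tested genes. Ivd, the isovaleryl-CoA dehydrogenase of leucine breakdown, had 133, 114 and 115 CPM in old females and 148, 84.1 and 122 CPM in old males, against 216, 193 and 203 CPM in young females and 180.0, 200.04 and 223 CPM in young males, with no overlap. Ivd changed by -0.76 ± 0.17 (adjusted p = 0.00215). Bcat2, the mitochondrial transaminase that starts the pathway, changed by -0.74 ± 0.18 (adjusted p = 0.00368) and Mccc1, a subunit of the leucine-pathway carboxylase, by -0.79 ± 0.19 (adjusted p = 0.00366). In females alone 0 genes of the list were called, with a median of -0.43 beside -0.40 in males, and without the 3 libraries rich in pancreas transcripts 5 fell. Of 38 nuclear genes of oxidative phosphorylation 12 fell and 0 rose (median -0.22), beside the same 17.2%. In females alone 0 of them were called (median -0.26), and in males alone 6 fell (median -0.18). Ndufa4, a respiratory chain subunit, had 85.7 to 149 CPM (median 108) in old libraries, against 145 to 201 CPM (median 165) in young libraries, with 1 old library above the lowest young one, and changed by -0.61 ± 0.13 (adjusted p = 0.00161), and Uqcrq, a complex III subunit, by -0.65 ± 0.16 (adjusted p = 0.00423). The oxidative phosphorylation count was 5 without old female library 2 or old male library 2, 7 without young female library 1, and 0 without the 3 libraries rich in pancreas transcripts.

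**Figure D4:**
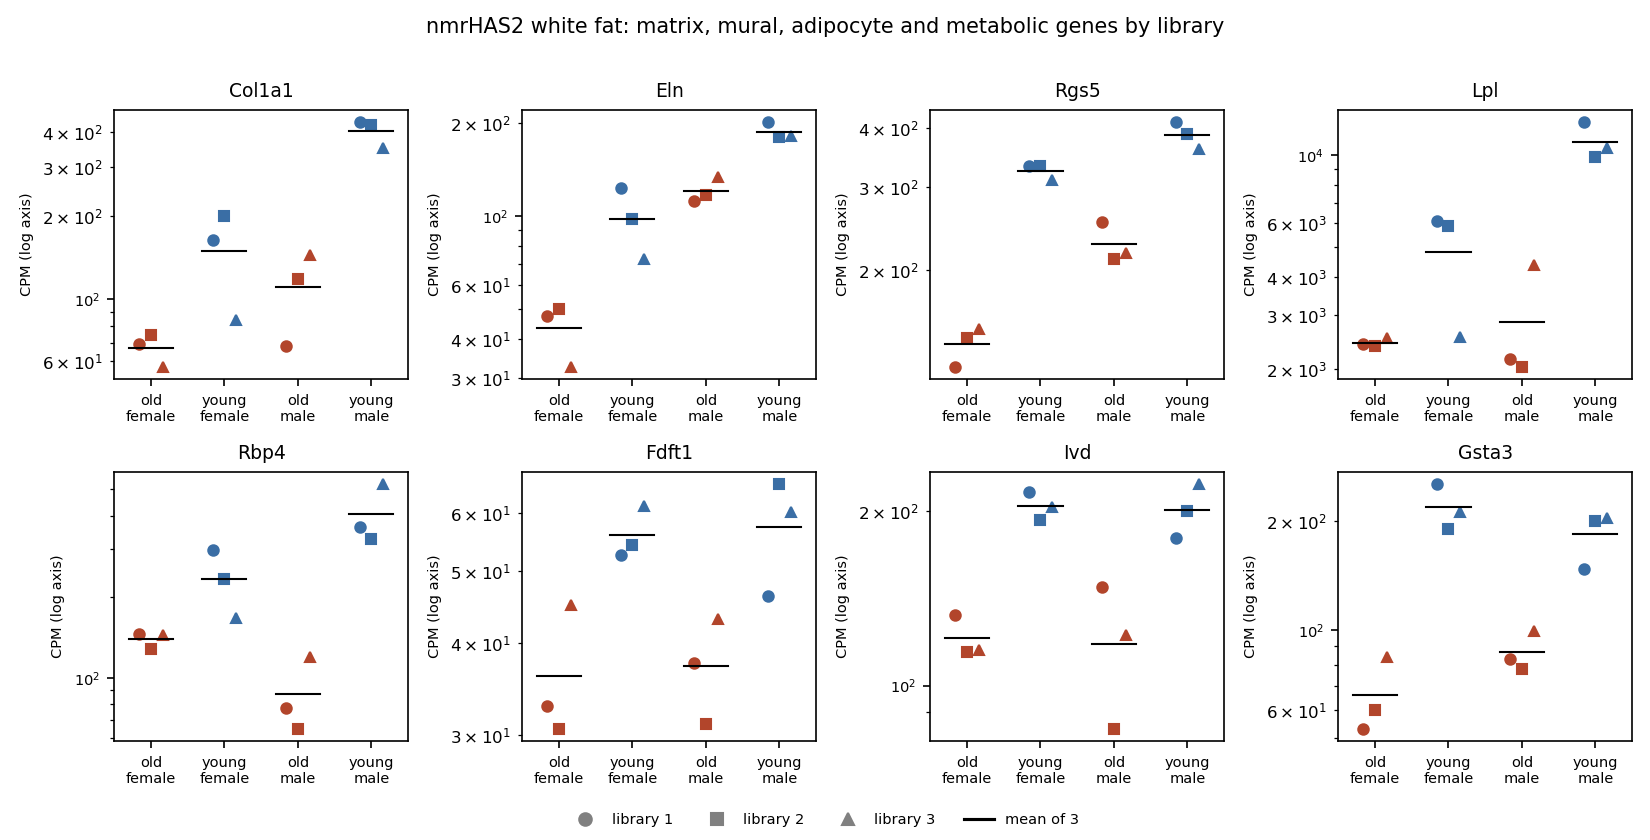
Each panel plots the CPM (log axis) of 1 gene of matrix, mural cells, adipocytes or metabolism in the 12 nmrHAS2 WAT libraries, old in red and young in blue by sex, with lines at the mean of 3. Within each sex the 3 old libraries lie below the 3 young ones for the 8 genes, and for Rgs5, Rbp4, Fdft1, Ivd and Gsta3 all 6 old libraries lie below all 6 young ones.

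Of 21 antioxidant and detoxification genes 8 fell and 1 rose (median -0.24), beside 17.2 and 19.6% of all genes. Gsta3, a glutathione transferase, had 53, 60.0 and 84.2 CPM in old females and 83.2, 77.9 and 99.2 CPM in old males, against 253, 189.8 and 212 CPM in young females and 147, 200.2 and 204 CPM in young males, with no overlap. Gsta3 fell in both sexes, at -1.08 ± 0.32 (adjusted p = 0.0124) in males and -1.73 ± 0.32 (adjusted p = 0.0136) in females. Prdx1, a peroxidase, changed by -0.59 ± 0.11 (adjusted p = 0.000762). Of 19 insulin and growth factor genes 7 fell and 0 rose (median -0.40), beside 17.2% of all genes that fell. Igf1, the growth factor, was among the 7, at -0.71 ± 0.23 (adjusted p = 0.0207). The count was 1 without the 3 libraries rich in pancreas transcripts, 2 without old male library 2, 3 without young female library 2 and 4 without old female library 2 or 3, young female library 1, or young male library 2 or 3. Pecr, a peroxisomal enoyl reductase, and Slc22a18, a membrane transporter, both chosen after their values were seen, fell without overlap, at -1.20 ± 0.16 (adjusted p = 2.66e-05) and -1.16 ± 0.14 (adjusted p = 8.86e-06).

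Genes of hyaluronan, the product of the transgene, were called in both directions. Of 20 genes of hyaluronan synthesis, turnover and binding 3 rose and 3 fell (median 0.10), below the 19.6 and 17.2% of all genes. Stab2, a clearance receptor for hyaluronan, had 14.2, 11.7 and 8.62 CPM in old females and 8.47, 11.1 and 7.99 CPM in old males, against 2.89, 4.25 and 4.6 CPM in young females and 5.43, 4.75 and 6.61 CPM in young males. All old libraries were above all young ones, and Stab2 rose by 1.13 ± 0.17 (adjusted p = 6.06e-05), with 1.14 within library kind. Cemip2, a cell-surface protein linked to hyaluronan breakdown, rose by 0.58 ± 0.10 (adjusted p = 0.000298), and Lyve1, the hyaluronan receptor of lymphatic vessels and resident macrophages, by 0.87 ± 0.18 (adjusted p = 0.00106). Both changed more in males, where age and library kind cannot be told apart. Cemip2 changed by 0.90 ± 0.15 (adjusted p = 9.92e-05) in males against 0.27 ± 0.14 (adjusted p = 0.286) in females. Lyve1 changed by 1.48 ± 0.25 (adjusted p = 0.000157) in males against 0.25 ± 0.25 (adjusted p = 0.598) in females. Old male library 1 held 255 CPM of Lyve1, against 74.4 to 128 CPM in the other old libraries. Has3, a hyaluronan synthase, had 0.379, 0.349 and 1.39 CPM in old females and 1.04, 1.51 and 0.871 CPM in old males, against 1.91, 1.54 and 1.85 CPM in young females and 2.85, 2.91 and 2.2 CPM in young males, with no overlap. Has3 changed by -1.24 ± 0.30 (adjusted p = 0.00398). Ugdh, which makes the precursor UDP-glucuronate, changed by -0.64 ± 0.17 (adjusted p = 0.00686), and Hyal1, a lysosomal hyaluronidase, by -0.44 ± 0.13 (adjusted p = 0.0159). The call for Hyal1 was lost without old male library 2.

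Other groups were called in males and not in females, and in males age coincides with library kind. Of 13 mitochondrially encoded genes 12 fell and 1 rose (median -1.30). In females 0 of the 13 were called, with a median of -0.25, beside -2.45 in males. mt-Nd4, a complex I subunit, had 958, 1137 and 656 CPM in old females and 597, 778 and 618 CPM in old males, against 1193, 1062 and 717 CPM in young females and 7179.9, 6896 and 8303 CPM in young males. The 3 young male libraries stood apart from the other 9, with changes of -3.49 ± 0.29 (adjusted p = 4.82e-08) in males and -0.11 ± 0.26 (adjusted p = 0.847) in females, and mt-Nd4l, its neighbour on the same transcript, changed by -4.48 ± 0.24 (adjusted p = 2.21e-10) in males. Of 55 tested replication-dependent histone genes 46 rose and 1 fell (median 3.39), and in males 43 rose (median 6.11). In females 0 were called, but the median was 0.94, beside -0.01 over all genes. For 7 of the 55 the old libraries lay above all young ones of their sex, in females and in males, beside 4.54% of all tested genes. The near-identical copies of histone genes make single values uncertain.

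Nr1d1, the clock repressor REV-ERBα, had 32.4, 41.1 and 40.6 CPM in old females and 37.1, 30.1 and 21 CPM in old males, against 34.7, 27.1 and 47.7 CPM in young females and 131, 219.6 and 180.4 CPM in young males, and Foxo1, a transcription factor downstream of insulin, had 33.9, 44.4 and 31.8 CPM in old females and 40.8, 32.9 and 36.9 CPM in old males, against 43.6, 38 and 34.8 CPM in young females and 106, 118 and 116 CPM in young males. For both genes the young males were high and the other 9 libraries overlapped. Nr1d1 changed by -2.59 ± 0.30 (adjusted p = 2.65e-06) in males and 0.06 ± 0.28 (adjusted p = 0.933) in females, and Foxo1 by -1.62 ± 0.17 (adjusted p = 7.55e-07) in males and -0.08 ± 0.16 (adjusted p = 0.82) in females. Tgfb1, the cytokine TGF-β1 of the senescence list, likewise changed by -1.67 ± 0.22 (adjusted p = 8.94e-06) in males and 0.56 ± 0.21 (adjusted p = 0.129) in females. In that list 5 of 24 genes rose and 4 fell (median 0.47), near the 19.6 and 17.2% of all genes. The median was 0.97 in females alone, where 2 rose and 0 fell, and 0.74 within library kind. It was -0.0084 in males alone, 0.033 without old male library 2 and -0.061 without the 3 libraries rich in pancreas transcripts. Ccl3, an inflammatory chemokine, changed by 1.85 ± 0.50 (adjusted p = 0.00739) and Igfbp5, a binder of insulin-like growth factors, by -1.10 ± 0.29 (adjusted p = 0.00714). Leaving out single libraries gave 3 to 6 rises and 2 to 4 falls. Of 17 complement and acute-phase genes 2 rose and 4 fell (median 0.11), beside 19.6 and 17.2% of all genes. Cfp, properdin, rose by 1.11 ± 0.25 (adjusted p = 0.00229). The list had 1 to 4 rises and 3 to 4 falls when single libraries were left out.

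The largest changes among genes named for their size lay in few libraries. Pdia2, Klk1b5, Cckar and Tmed6 rose, at 10.22, 8.76, 8.56 and 5.17, and were highest in the 3 libraries richest in pancreas transcripts, old female 1 and 2 and old male 2. Pdia2, a disulfide isomerase of the pancreas, had 109, 71.2 and 34.9 CPM there and 0.117 to 1.47 CPM in the other old libraries, against at most 0.0771 CPM in young ones. Foxj1, a transcription factor of ciliated cells, Ccdc153 and Sult1d1 rose, at 4.82, 4.81 and 4.44, and each lost its call without old female library 3 or old male library 3. Foxj1 had 12.7 and 41.8 CPM in those libraries and at most 0.349 CPM in the other old ones, against 0 to 4.68 CPM in young ones. Ggt1, gamma-glutamyltransferase, changed by 4.72 ± 1.35 (adjusted p = 0.0109), and Vmn1r221, annotated as a vomeronasal receptor, by 6.95 ± 0.78 (adjusted p = 1.91e-06) in males, 1.60 ± 0.56 (adjusted p = 0.0992) in females and -0.12 within library kind.

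Named falls included liver and epithelial transcripts. Of 12 hepatocyte genes 12 fell, 0 in females alone and 11 in males alone, and the hepatocyte sum was 892 to 1506 CPM in old libraries, against 5034 and 5945 CPM in young female library 3 and young male library 3 and 1705 to 2185 CPM in the other young ones. Serpina3k, a liver serpin, had 0.413, 0.279 and 0.287 CPM in old females and 0.598, 0.432 and 0.39 CPM in old males, against 2.38, 2.51 and 4.29 CPM in young females and 15.9, 20.6 and 284 CPM in young males. All old libraries were below all young ones, and its change was -5.53 ± 0.78 (adjusted p = 4.04e-05). Serpina3b fell likewise, at -4.19 ± 0.48 (adjusted p = 4.85e-06). The urinary protein genes Mup1 and Mup16 are near-identical copies whose counts are uncertain. Mup1 was at 0 in all 6 old libraries, against 0.0514 to 48.6 CPM in young ones, and Mup16 changed by -4.18 ± 0.87 (adjusted p = 0.00156). Aldh3a1, an aldehyde dehydrogenase, and Upk1a, a uroplakin of bladder lining, had 50.4 and 242 CPM in young female library 3 and at most 0.245 and 0.465 CPM in the other young libraries, so that the call is that of 1 library. Cyp4f15 and Ugt2b34 were also highest in that library and lost their calls without it. Trp63, the epithelial p63 factor, fell in both sexes, at -2.63 ± 0.69 (adjusted p = 0.006) in males and -3.80 ± 0.72 (adjusted p = 0.0136) in females, and Trim29 changed by -3.05 ± 0.61 (adjusted p = 0.000891). Young female library 3 also held 350.3 CPM of mammary epithelium genes, against 15.0 to 34.7 CPM in the other young libraries and 13.1 to 71.0 CPM in old ones.

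A further 10 genes were named for changes called over both sexes that did not pass an unadjusted p of 0.05 in females. Lncpint, a long non-coding RNA, had 19.3, 24.3 and 13.8 CPM in old females and 16, 22.4 and 15.1 CPM in old males, against 12.5, 11.9 and 16.4 CPM in young females and 0.187, 0.22 and 0.0778 CPM in young males, with only the young males low. Pou1f1, Rxfp1, Pcp4 and the histone gene H2bc15 were at 0 to 0.147 CPM in young males. Among falls, Cyp3a11, Mup7, Ces3a and Sult2a8 were high in young males, at most 156, 134, 62.4 and 21.5 CPM, all in young male library 3, which also had the highest hepatocyte sum. Cyp3a11 was at 0 CPM in old females, against 0.103 to 0.129 CPM in young females. Srp54b had 0, 0 and 68.2 CPM in old females and 0 CPM in the 3 old males, against 61.3 to 86.9 CPM in young females and 21.9 to 39.1 CPM in young males. It was at 0 in the 5 old libraries with few values that are not whole and present in old female library 3. The 3 young male libraries, which held Srp54b, also had few such values (28.8 to 29.1% of values above 0).

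The same ages were compared in CreER WAT, which has the same library kinds. There 5289 genes rose (25.1%) and 5147 fell (24.4%), together 49.4%. For the lists the counts in nmrHAS2 and CreER WAT were 18 and 16 rising T cell genes, 14 and 17 B cell genes, 8 and 14 macrophage genes, 10 and 11 interferon genes, and 13 and 13 falling matrix genes. Falling genes numbered 11 in nmrHAS2 and 19 in CreER WAT for cholesterol synthesis, 12 and 26 for nuclear oxidative phosphorylation, 9 and 15 for branched-chain amino acid breakdown, 7 and 13 for adipocyte identity and 3 and 13 for fatty acid and triglyceride synthesis (medians -0.40 and -1.48). The test of the difference in ageing between genotypes called 0 of 21109 genes in edgeR (0%), with 1287 at an unadjusted p under 0.05, while DESeq2 called 115. Among the smallest p-values were those of Ttn, a sarcomere protein (-4.98 ± 0.87 (adjusted p = 0.194)), the pancreas gene Cela1 (6.18 ± 1.14 (adjusted p = 0.194)), and Gpr176, an orphan receptor (-1.76 ± 0.33 (adjusted p = 0.194)). Dgat2 changed by -1.53 ± 0.53 (adjusted p = 0.0315) in nmrHAS2 and -3.65 ± 0.58 (adjusted p = 7.01e-05) in CreER WAT, a difference of 2.12 ± 0.75 (adjusted p = 0.71).

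**Figure D5:**
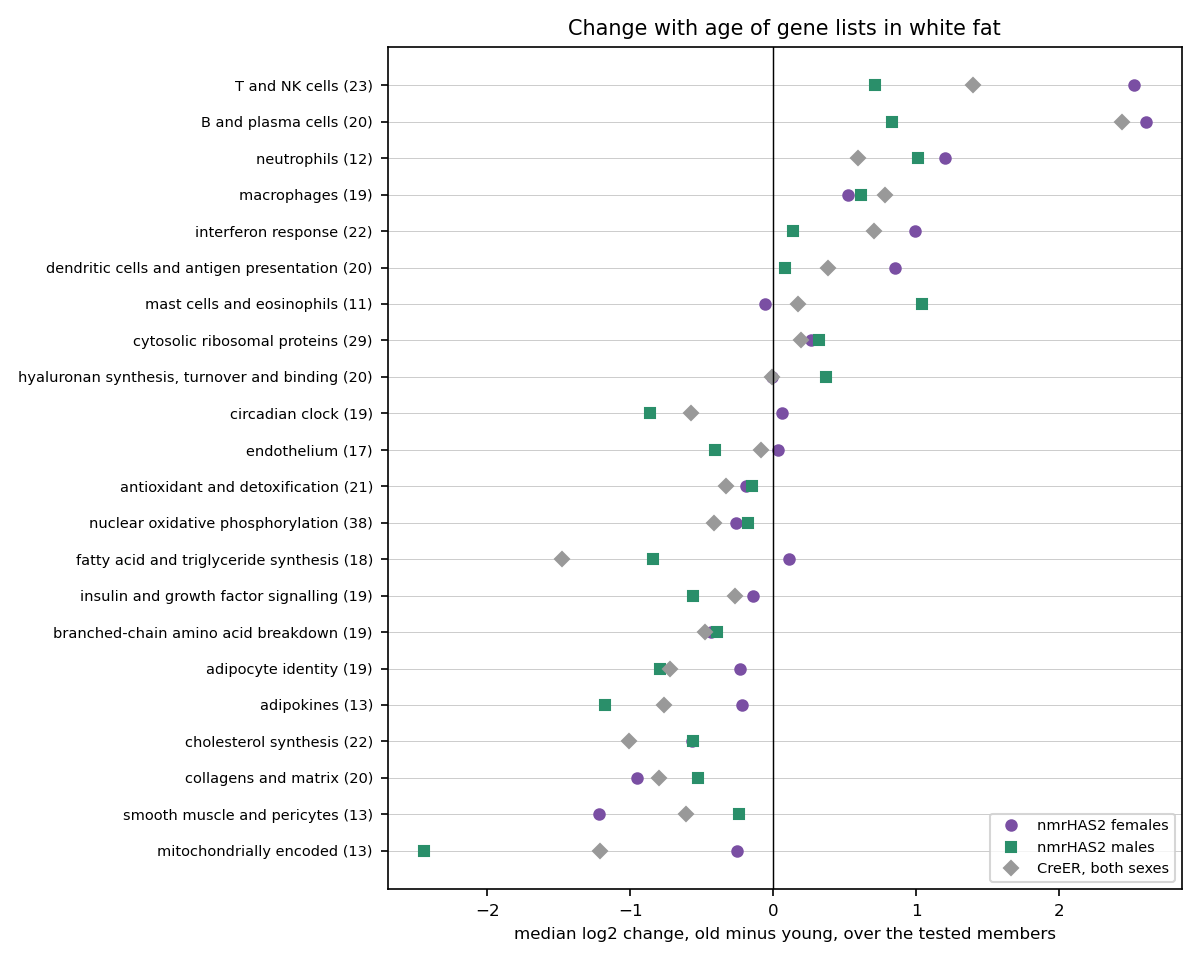
Each row is a gene list with its number of tested members in brackets, and points give the median log2 change with age (x axis, old minus young) in nmrHAS2 females, nmrHAS2 males and CreER WAT of both sexes. Lymphocyte lists lie to the right in the 3 sets, matrix, cholesterol and branched-chain amino acid lists to the left, and the mitochondrially encoded list lies at -2.45 in nmrHAS2 males and -0.25 in nmrHAS2 females.

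The change with age differed between male and female nmrHAS2 WAT for 3965 genes (18.8%), higher in males for 2340 (11.1%) and lower for 1625 (7.7%). The smallest p-values belonged to Gm22009, Rn7sk and Rn7s1, all low in young males. Rn7sk had 25711, 17748 and 38067 CPM in old females and 20332, 22584 and 23036 CPM in old males, against 21897, 19432 and 29428 CPM in young females and 1.99, 1.81 and 1.69 CPM in young males. This difference between sexes and the library kind of the young males cannot be told apart.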

How the data were processed

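WAT libraries of nmrHAS2 mice (6 old and 6 young) and of CreER mice (6 old and 6 young) were grouped by their labels. RNA was extracted from frozen tissue with Trizol, DNase and RNeasy columns, per the labels' protocols. Trim Galore 0.6.5 and Salmon 1.4.0 are named in the submitters' processing notes. The authors deposited expected counts for 40946 genes, which were rounded here to whole numbers. The sources used here name no build or annotation. No 2 replicate libraries held identical values.

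The 24 WAT libraries were fitted with edgeR 4.0.16 (R 4.3.3) with 8 group means, TMM scaling, filterByExpr and the quasi-likelihood F test, weighting the sexes equally. The threshold was a Benjamini-Hochberg adjusted p of 0.05 over all genes tested (2-sided). Each standard error is the size of the log2 change over the root of its F value. The fit was tested on simulated data. Limits from counting cover counting error only.

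Named genes are, per direction, the 10 largest called changes at 2 CPM or more on average, with the same sign in both sexes and not set aside. A further condition, a fit with library kind as a term, could not be fitted because all young males are of 1 kind, and an unadjusted p under 0.05 in females alone was used in its place. Also named are the 5 largest changes that fail only this condition, for each list up to 4 members, by smallest p, and the smallest p of the differences between genotypes and sexes. Set aside were lists of pancreas, muscle, histone and small RNA genes and muscle transcripts at 10 times or more their level in other tissues. Predicted genes, pseudogenes, receptor segments, Y-linked genes, Xist and Tsix were also set aside. Trat1, Ubash3a, Gpr171, Ptprcap, Tnfrsf13c, Pecr and Slc22a18 (no overlap in either sex), Ifit1, Irgm1 and Oas1a (promoters) and Ugdh and Hyal1 (remaining calls of their list) were chosen after their values were seen. Some named genes are not reported here. Members and lists were chosen with earlier results of these data known. Symbols were matched to RefSeq for 29948 genes. Alternatives were RLE scaling, no filter, DESeq2 1.42.0, a replicate block, only the 12 nmrHAS2 libraries, 1 sex, 1 library kind, set-aside genes removed first, and each library left out. Leaving out libraries above 10000 CPM of pancreas genes was added after seeing the data.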

Additional observations from a re-analysis of the deposited data

Results flagged for a closer look

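In 47 of 219 tested groups of 6 libraries with a level of at least 1 CPM, the highest or lowest library lay far from the others by Dixon's test, where chance gives about 1 in 20. Genes were often flagged by the same library, so the flags are not independent.

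Old female library 3 stood above the other old libraries in total counts (95.7 M, against 28.6 to 35.7 M) and in the summed T and natural killer cell list (429 CPM, against 95.7 to 171). In the same library stood high Gzmk (27.2 CPM), Cd2 (50.4), Cd5 (11.8), Cd22 (104), Cd79b (218), Fcrla (41.4), Ptprcap (61.5), Slain1 (7.39), Tnfrsf13c (47.8), Irgm1 (80.1), Psmb8 (153), Gpam (430.2), H2bc15 (16.8), Pcp4 (29.1), Srp54b (68.2) and Upk1a (1.04). The depth and the library kind of this library moved with these values, and their part was not tested. Old male library 3 stood high in the epididymis list (5.29 CPM, against 0.172 to 0.797), Foxj1 (41.8), Ccdc153 (29.5), Cyp4f15 (1.47) and Lpl (4383), and old male library 1 in Lyve1 (255).

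Young female library 3 stood high in the lists of skeletal muscle (1931 CPM, against 124 to 629.6), mammary epithelium (350.3) and smooth muscle (4781, against 1029 to 1697), and low in the adipocyte list (42194, against 62169 to 73570.0). It also held high Cyp4f15 (31.4 CPM), Aldh3a1 (50.4), Upk1a (242), Trp63 (24.5), Trim29 (18.8) and Ugdh (122), and low Cd2 (2.51) and Col15a1 (40.8). Young male library 3 stood high in the erythroid list (3115 CPM, against 623 to 1214), Mup1 (48.6), Serpina3k (284), Cyp3a11 (156), Mup7 (134), Ces3a (62.4) and Sult2a8 (21.5). Young male library 2 was high in the epididymis list (143 CPM, against 0.376 to 7.07). Young male library 1 was high in Foxj1 (4.68 CPM), Ccdc153 (5.4) and Serpina3b (22.3).

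The change with age differed between the sexes for 3965 genes. Among genes named here the male change exceeded the female one by 5.35 on the log2 scale for Vmn1r221, 6.26 for Lncpint, 5.84 for Pou1f1, 4.18 for H2ac7, 1.23 for Lyve1, 0.63 for Cemip2 and 1.60 for Pdgfra. The male minus female difference was -4.54 for Serpina3k, -1.01 for Notch3, -1.47 for Rbp4, -2.14 for Apln, -1.53 for Foxo1, -2.65 for Nr1d1, -4.08 for mt-Nd4l, -3.38 for mt-Nd4 and -2.23 for Tgfb1. In males age and library kind cannot be told apart.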

How the results depend on the processing

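Age called 7769 genes in the full fit. RLE scaling gave 7776 (4320 rose and 3456 fell), no filter 6960, DESeq2 8495, the 12 nmrHAS2 libraries alone 7215, set-aside transcripts removed first 7632 and males alone 7467. The count moved to 988 in females alone, to 967 within library kind and to 5068 without the 3 libraries above 10000 CPM of pancreas genes, each with fewer libraries. With single libraries left out it ran from 6397 to 7960. For the difference between genotypes the main count was 0 (1287 at an unadjusted p under 0.05), DESeq2 gave 115, the fit within library kind 1, the fit without those 3 libraries 1, and single libraries left out 0 to 4; the cause was not tested. For the difference between sexes single libraries left out gave 3210 to 3894, beside 3965. The replicate block gave 7437 calls with age, 0 between genotypes and 3833 between sexes. Replicate numbers carry no pairing in the labels, and old and young libraries with the same number correlated at 0.0121, 0.103 and 0.0668 in females and -0.273, 0.0325 and -0.243 in males. Without a filter 6 interferon genes rose in place of 10.

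Of 2242 comparisons of a named gene with an alternative, 1944 kept direction and call, 282 lost the call and 16 changed sign. Within library kind the log2 changes turned to -3.27 for Cckar, -0.15 for Clec10a, 0.66 for Dgat2, -0.23 for Klk1b5, -0.32 for Mrc1, 0.15 for Nr1d1, -0.87 for Pdgfra, -0.27 for Pou1f1, -0.32 for S100a9, 0.39 for Tgfb1 and -0.12 for Vmn1r221. In females alone they turned to 0.059 for Nr1d1, -0.10 for Pdgfra and 0.56 for Tgfb1, and without young female library 3 to 0.77 for Aldh3a1 and 0.58 for Upk1a, against -4.57 and -4.88 at the other end when single libraries were left out. Library kind as a term, in 2 or 3 levels, could not be fitted. A limit of 100 CPM of pancreas genes would leave no old male library, no library passes 5000 CPM of muscle genes, and the sex difference has no value within library kind, so these were not run. With 3 libraries per sex and age, and totals of 28.6 to 95.7 M counts, levels under 1 CPM rest on few counts in the shallower libraries.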
